A study of Mus musculus with 7 samples.

Results

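The major histocompatibility complex (MHC) class II genes and the invariant chain were followed across 7 Affymetrix mouse arrays of sorted CD4+ T cells. The set holds 8 genes, Cd74, H2-Aa, H2-Ab1, H2-Eb1, H2-DMa, H2-Oa, H2-Ob and Ciita, out of 18193 genes that have a probe set of their own. Of the 34945 probe sets whose annotation names a single gene, 16 belong to them, and the brightest over the 7 arrays stands for its gene. The members were chosen by name with values of these same arrays known. Their levels and differences are therefore given as a description, and no p-value is printed for a member. Values are log2(intensity + 1), and a difference is on that log2 scale, which understates the change of dim probe sets.

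The arrays fall into 3 groups of male mice aged 3 weeks, with no treatment named. The Sf.Il2-/- group (3 arrays) comes from Scurfy mice that also carry a null Il2 allele, for which the labels name the strain B6.129P2-Il2tm1Hor/J. The Sf group (3 arrays) comes from Scurfy mice, B6.Cg-Foxp3sf/J, whose mutation of Foxp3 takes away working regulatory T cells, and both mutant groups carry it. The B6 group is 1 array of C57BL/6 cells pooled from the lymph nodes of 2 mice, so it has no spread of its own. Peripheral lymph node cells were first stripped of those bound by antibodies to NK1.1, CD11c, CD11b, CD8 and B220, and the rest were sorted as positive for both CD4 and CD3. The depletion is aimed at the B cells, macrophages and dendritic cells that are best known for class II.

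Class II molecules are pairs of an alpha and a beta chain that show peptides from the endosome to CD4 T cells. H2-Aa and H2-Ab1 encode the chains of I-A, and H2-Eb1 the beta chain of I-E, whose alpha chain is not made in mice of the b haplotype such as C57BL/6. The invariant chain, encoded by Cd74, fills the groove of new class II molecules and guides them to the endosome, and at the cell surface it binds the cytokine MIF. H2-DMa encodes a chain of H2-DM, which exchanges the last invariant chain fragment for peptide, and H2-Oa and H2-Ob encode the chains of H2-DO, which restrains H2-DM. Ciita is the coactivator that class II promoters depend on in antigen-presenting cells, where it works through factors bound to the X and Y boxes of those promoters. Mouse T cells are known for making little class II of their own.

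Promoters are shown for H2-Aa and H2-Eb1, members whose levels split the arrays alike. Those of H2-Oa and H2-Ob are shown too, as their products pair and their levels moved in opposite directions against B6. The promoters are RefSeq windows of 300 bases on build GRCm38.p6, written 5′ to 3′ in the direction of the gene. Capitals mark every match, on either strand, to the core of the X1 box, searched as CCNAGNNAC, and to the Y box core, searched as CCAAT. The H2-Aa window is chr17:34287774-34288073 (minus strand), that of H2-Eb1 is chr17:34305617-34305916 (plus strand), that of H2-Oa is chr17:34092129-34092428 (plus strand) and that of H2-Ob is chr17:34238655-34238954 (plus strand).
H2-Aa: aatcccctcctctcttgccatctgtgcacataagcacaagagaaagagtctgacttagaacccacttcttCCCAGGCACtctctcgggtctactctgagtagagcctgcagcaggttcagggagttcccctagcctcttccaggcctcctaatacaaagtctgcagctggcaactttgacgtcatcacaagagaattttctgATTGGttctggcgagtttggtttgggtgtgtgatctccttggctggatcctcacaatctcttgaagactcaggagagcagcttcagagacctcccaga
H2-Eb1: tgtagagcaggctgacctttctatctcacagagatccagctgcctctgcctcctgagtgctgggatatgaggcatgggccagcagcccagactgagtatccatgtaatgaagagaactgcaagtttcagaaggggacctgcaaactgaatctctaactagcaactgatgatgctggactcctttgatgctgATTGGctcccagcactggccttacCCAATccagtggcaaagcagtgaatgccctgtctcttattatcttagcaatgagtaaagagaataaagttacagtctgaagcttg
H2-Oa: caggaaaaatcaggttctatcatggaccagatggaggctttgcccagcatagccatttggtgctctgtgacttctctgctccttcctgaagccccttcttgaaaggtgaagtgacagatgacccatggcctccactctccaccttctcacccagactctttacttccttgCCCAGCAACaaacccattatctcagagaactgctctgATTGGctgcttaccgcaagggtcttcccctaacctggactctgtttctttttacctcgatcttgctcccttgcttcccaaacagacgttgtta
H2-Ob: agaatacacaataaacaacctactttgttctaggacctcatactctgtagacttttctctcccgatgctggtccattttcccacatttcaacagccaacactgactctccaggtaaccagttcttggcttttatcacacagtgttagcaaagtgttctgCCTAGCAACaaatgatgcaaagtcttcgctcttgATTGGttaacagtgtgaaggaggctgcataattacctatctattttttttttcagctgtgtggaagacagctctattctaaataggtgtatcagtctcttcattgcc

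All 4 windows hold the Y box core on the reverse strand, beginning at position -48 in H2-Aa, -59 in H2-Eb1, -43 in H2-Oa and -57 in H2-Ob relative to the start site, and H2-Eb1 holds another on the forward strand at -35. Of all 32851 RefSeq windows of this length 37.4% hold that core. The longer form CCAATCAG, which contains the core, occurs in the windows of H2-Aa, H2-Eb1 and H2-Oa and in 4.1% of all windows. The X1 core as searched occurs in H2-Aa, H2-Oa and H2-Ob, at -180, -80 and -91 in that order, and in 17.3% of all windows. The H2-Aa match lies much farther upstream of the Y core than the other matches do, so it may not be the X box of that gene. A search for 1 fixed form misses X boxes that differ from it, so H2-Aa and H2-Eb1 are not shown to lack one near the Y core. Both cores together occur in 6.38% of all windows. H2-DMa has 2 windows, 1 without either core and 1 with the Y core alone at -198. Windows of H2-Ab1 and Ciita were not used here, and that of Cd74 is not shown. These matches are letters in a window and show no binding.

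Array medians of intensity lay between 29.3 and 32.4, and precision is limited by how few arrays there are. Il2 read 7.17, 8.20 and 7.74 in the arrays labelled Sf.Il2-/-, 5.39, 5.09 and 7.35 in Sf and 5.22 in B6. The sources used here do not place its probes against the disruption, so the genotype is not tested by these values. Foxp3 read 4.41, 4.20 and 4.24 in Sf.Il2-/-, 6.04, 5.87 and 6.32 in Sf, and 7.25 in B6. Further features of the arrays touch the results below. The neutrophil transcript S100a8 read 7.63 in Sf.Il2-/- 2 and 6.37 in Sf 1, against 2.53 to 4.10 in the other arrays. Other neutrophil markers, brighter on average, varied less over the 7 arrays, Ngp from 6.50 to 7.13 and Mpo from 6.03 to 6.70. By the upper quartile of intensity the arrays split into set 1 (110.2 to 116; Sf.Il2-/- 1 and 2, Sf 1 and 2) and set 2 (130.4 to 145; Sf.Il2-/- 3, Sf 3 and B6), a split made from the data that no label names. The level of a transcript in such bulk samples cannot tell more cells of a type from more RNA per cell.

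Cd74, the invariant chain gene, was high in every mutant array and low in B6. It read 9.95, 10.08 and 9.82 in Sf.Il2-/-, 9.82, 9.39 and 10.05 in Sf, and 6.37 in B6. In intensity these were 986, 1085 and 902 in Sf.Il2-/-, 900, 671 and 1055 in Sf, and 81.9 in B6. The 6 mutant arrays lay close together and far above B6, and the mutant groups overlapped each other. Against B6 the difference was 3.58 ± 0.31 (log2, SE, n = 3 and 1) in Sf.Il2-/-, an 11.9-fold level, and 3.38 ± 0.31 in Sf, a 10.4-fold level. Between Sf.Il2-/- and Sf it was 0.20 ± 0.22 (n = 3 and 3), and it turned to -0.088 after quantile normalization. Within array set 2 the values were 3.45 for Sf.Il2-/- v B6 and 3.67 for Sf v B6, with 1 array on each side.

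**Figure D1:**
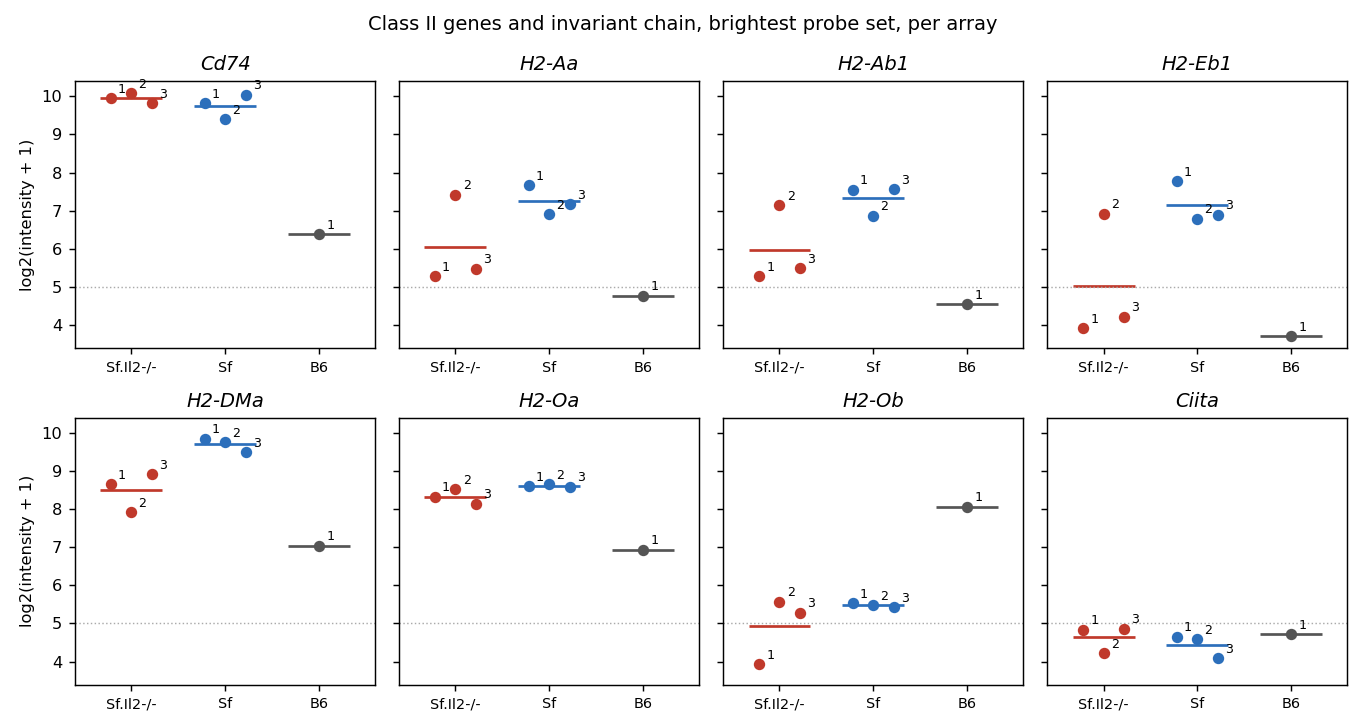
Level of each member at its brightest probe set, as log2(intensity + 1), in the 3 Sf.Il2-/- arrays, the 3 Sf arrays and the B6 array. Points carry the replicate number, short lines are group means, and the dotted line is the level of 5 used as a filter. Cd74 is high in all 6 mutant arrays, while H2-Aa, H2-Ab1 and H2-Eb1 are high in Sf and in Sf.Il2-/- 2 only.

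The chains of the class II molecule did not follow the invariant chain in every array. H2-Aa, the alpha chain of I-A, read 5.28, 7.42 and 5.47 in Sf.Il2-/-, 7.67, 6.90 and 7.16 in Sf, and 4.76 in B6. H2-Ab1, the beta chain of I-A, read 5.27, 7.15 and 5.49 in Sf.Il2-/-, 7.55, 6.87 and 7.56 in Sf, and 4.54 in B6. H2-Eb1, the beta chain of I-E, read 3.91, 6.92 and 4.22 in Sf.Il2-/-, 7.77, 6.79 and 6.89 in Sf, and 3.71 in B6. For all 3 genes Sf.Il2-/- 2 lay among the Sf arrays, while Sf.Il2-/- 1 and 3 lay below every Sf array and above B6, nearer to B6 than to any Sf array. The groups Sf.Il2-/- and Sf therefore overlapped in that single array. In summed intensity the 3 chains gave 89.5, 431 and 105 in Sf.Il2-/-, 606, 343 and 448 in Sf, and 60.4 in B6.

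The other probe sets of these chains show how far the pattern rests on a single probe set. Of the 8 probe sets of H2-Aa, H2-Ab1 and H2-Eb1, 7 placed all 3 Sf arrays and Sf.Il2-/- 2 above Sf.Il2-/- 1, Sf.Il2-/- 3 and B6. At the second of H2-Aa the values were 4.49, 6.78 and 4.62 in Sf.Il2-/-, 7.18, 6.46 and 6.63 in Sf, and 4.22 in B6. At the second of H2-Ab1 they were 3.73, 5.20 and 4.14 in Sf.Il2-/-, 5.47, 4.95 and 5.54 in Sf, and 2.96 in B6. The exception was the third probe set of H2-Aa, which read 4.65, 5.06 and 4.60 in Sf.Il2-/-, 4.58, 4.79 and 4.76 in Sf, and 2.82 in B6. Like Cd74, it set all mutant arrays above B6. It was dimmer than the first 2 probe sets of H2-Aa, but not than the fourth or than the third of H2-Ab1, which are among the 7. The specificity of the probe sets among class II genes was not tested.

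**Figure D2:**
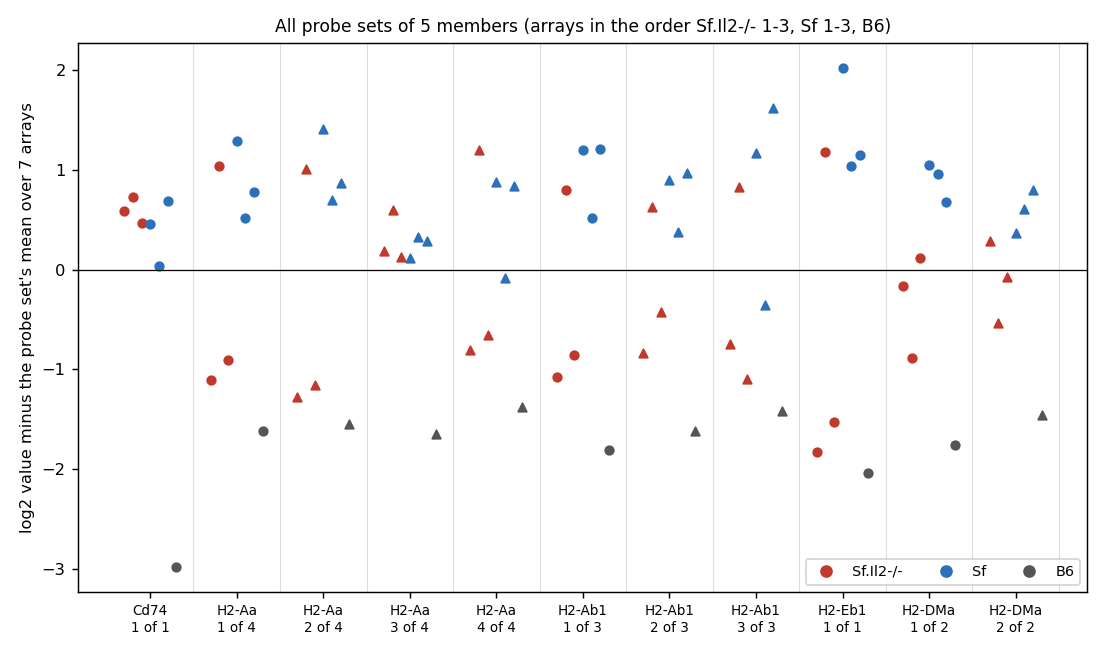
Every probe set of 5 members, as the log2 value in each array minus that probe set's mean over the 7 arrays. Circles are the brightest probe set of a gene and triangles the others, numbered by brightness, with arrays from left to right in the order Sf.Il2-/- 1 to 3, Sf 1 to 3 and B6. Apart from the third probe set of H2-Aa, the probe sets of the 3 chains put Sf.Il2-/- 1 and 3 below Sf.Il2-/- 2 and all Sf arrays.

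As differences, the chains stood 2.48 ± 0.70 (H2-Aa), 2.79 ± 0.63 (H2-Ab1) and 3.44 ± 0.96 (H2-Eb1) above B6 in Sf (log2, SE, n = 3 and 1). Against B6 the same chains were at 1.29 ± 0.70, 1.43 ± 0.63 and 1.31 ± 0.96 in Sf.Il2-/-, and without Sf.Il2-/- 2 at 0.61, 0.85 and 0.36. All 3 read under 5 in B6, near the floor, so the sizes are not exact, and they entered the fit through the mutant groups. Set directly against Sf, Sf.Il2-/- was at -1.19 ± 0.50, -1.35 ± 0.45 and -2.13 ± 0.68 (n = 3 and 3). The SD over the 3 Sf.Il2-/- arrays was 1.19, 1.02 and 1.66 for the 3 chains, against 0.39, 0.40 and 0.54 over the Sf arrays. Sf.Il2-/- 2 was the array that stood apart.

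The members of the peptide exchange step were higher in both mutants, with 1 exception. H2-DMa, the H2-DM alpha chain, read 8.65, 7.93 and 8.93 in Sf.Il2-/-, 9.86, 9.77 and 9.49 in Sf, and 7.05 in B6. The 3 groups did not overlap, with Sf highest, Sf.Il2-/- between and B6 lowest. Its difference was -1.20 ± 0.27 for Sf.Il2-/- v Sf, 1.45 ± 0.39 for Sf.Il2-/- v B6 and 2.66 ± 0.39 for Sf v B6. Here Sf.Il2-/- 2, the array with the high class II chains, was the lowest of its group. The second, dimmer probe set of H2-DMa kept the 3 groups apart in the same order, at 4.47, 3.64 and 4.11 in Sf.Il2-/-, 4.55, 4.79 and 4.99 in Sf, and 2.73 in B6.

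Against B6 the paired chains of H2-DO went opposite ways, while the means of both were lower in Sf.Il2-/- than in Sf. H2-Oa, the alpha chain, read 8.33, 8.53 and 8.14 in Sf.Il2-/-, 8.61, 8.66 and 8.59 in Sf, and 6.94 in B6. Against B6 it was at 1.39 ± 0.28 in Sf.Il2-/- and at 1.68 ± 0.28 in Sf, and at -0.29 ± 0.20 for Sf.Il2-/- v Sf. The mutant groups did not overlap, though the gap between them was narrow. H2-Ob, the beta chain, read 3.94, 5.58 and 5.28 in Sf.Il2-/-, 5.54, 5.49 and 5.42 in Sf, and 8.07 in B6. This is the only member that lay lower in every mutant array than in B6, at -3.14 ± 0.54 in Sf.Il2-/- and -2.59 ± 0.54 in Sf. Sf.Il2-/- 1 was its lowest array, near the floor, and the mutant groups overlapped at -0.55 ± 0.38. A further probe set that names H2-Ob beside another gene was left out by the rule.

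Ciita read 4.84, 4.22 and 4.86 in Sf.Il2-/-, 4.65, 4.58 and 4.08 in Sf, and 4.72 in B6 at its brightest probe set. All 7 values lay under 5, so the gene was not tested, and its other probe sets were dimmer, with none above 4.11. The second lay between 2.71 and 3.87, with B6 at 3.84. The third read 3.53, 2.70 and 3.27 in Sf.Il2-/-, 4.11, 3.28 and 2.61 in Sf, and 1.11 in B6, lowest in B6. At the brightest probe set the arrays with high class II chains were not those with the highest Ciita values. Values this near the floor have no order.

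**Figure D3:**
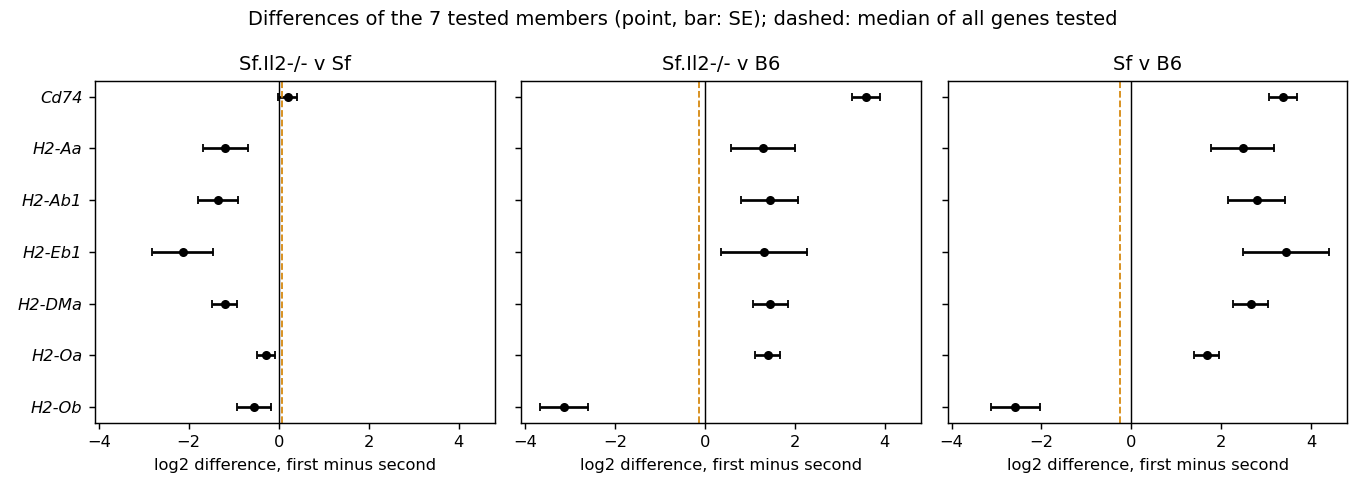
Differences of the 7 members tested, on the log2 scale, for Sf.Il2-/- v Sf, Sf.Il2-/- v B6 and Sf v B6, each the first group minus the second. Points are the fit's estimates, bars are SE and the dashed line is the median over all genes tested. Cd74 stands apart from the other members in Sf.Il2-/- v B6, and H2-Ob lies below 0 in both comparisons with B6.

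Set beside all genes, the members gave the following counts in limma's fit over 11460 genes, at a Benjamini-Hochberg adjusted p of 0.05. In Sf v B6, 4 of the 7 members tested passed, Cd74, H2-DMa and H2-Oa higher and H2-Ob lower, where 2.47% of all genes passed, 1.31% higher and 1.16% lower. In Sf.Il2-/- v B6, 3 passed, Cd74 and H2-Oa higher and H2-Ob lower, where 2.69% of all genes passed, 1.49% higher and 1.2% lower. In Sf.Il2-/- v Sf 0 passed, where 0.279% of all genes passed (0.0436% higher and 0.236% lower) and 908 of all genes had an unadjusted p under 0.05. Because the members were proposed from these same contrasts, nothing is read from these shares. The comparisons with B6 share their only B6 array. The median difference of the members was -1.19 for Sf.Il2-/- v Sf, 1.39 for Sf.Il2-/- v B6 and 2.66 for Sf v B6, beside medians over all genes of 0.08, -0.14 and -0.25.

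In arrays that did not overlap between groups, 6 of the 7 members were higher and H2-Ob lower in each comparison with B6. Over all genes tested, 24.7% were higher and 44.5% lower without overlap in Sf.Il2-/- v B6, and 19.6% higher and 46.9% lower in Sf v B6, since a single B6 array is easily passed. In Sf.Il2-/- v Sf, H2-DMa and H2-Oa lay lower without overlap, as did 3.72% of all genes, and 0 members lay higher, against 8.39% of all genes. The direction of every difference from B6 held for all 7 members after quantile normalization and after centring of arrays on their medians. Those scalings changed the split of all calls in Sf v B6, with 150 higher and 133 lower as deposited, 379 and 157 after quantile normalization, and 195 and 340 after centring. In Sf.Il2-/- v B6 the split was 171 and 137 as deposited and 472 and 235 after quantile normalization. The median over all genes in Sf v B6 moved to 0.03 after quantile normalization, and relative to it the members' median was 2.74, against 2.90 as deposited.

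The calls depended on single arrays. Without Sf.Il2-/- 2, the chains passed as lower in Sf.Il2-/- than in Sf, at -1.87 for H2-Aa, -1.94 for H2-Ab1 and -3.09 for H2-Eb1. Leaving out both arrays with high S100a8, Sf.Il2-/- 2 and Sf 1, also made the 3 chains pass, at -1.66, -1.83 and -2.77. In Sf v B6 all 7 members passed without Sf.Il2-/- 2, and likewise without Sf 3. Sf.Il2-/- 2 is not part of that comparison, and its differences stayed the same without that array. An array outside a comparison bears on the calls only through the spread, which is estimated over all arrays. Only 2, Cd74 and H2-DMa, passed in Sf v B6 without Sf 1. Cd74 passed in both comparisons with B6 under each of the 16 alternatives run, and H2-Ob in Sf.Il2-/- v B6 under each of them. H2-Ob in Sf v B6 passed under 8 of the 16, and was lost among others with no filter, with quantile normalization, with the array set as a block and without Sf 1, Sf 2 or Sf.Il2-/- 3. H2-Oa in Sf.Il2-/- v B6 passed under 10 of 16, and was lost with no filter, without Sf 1 and on leaving out any 1 of the Sf.Il2-/- arrays. In Sf v B6 H2-Oa passed under 14, being lost without Sf 1, and H2-DMa under 15, being lost at its second probe set (2.05). H2-DMa in Sf.Il2-/- v B6 did not pass over all arrays and passed without Sf.Il2-/- 2, at 1.74, and without Sf 3. The chains lay lower in Sf.Il2-/- within array set 1 (-0.94, -0.998 and -1.86) and within array set 2 (-1.69, -2.07 and -2.68), where the second has 1 array on each side. H2-DMa passed as lower in Sf.Il2-/- than in Sf without Sf 3, at -1.31, and within array set 1 alone, at -1.52.

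The other class II chains on the array did not join the members. H2-DMb2, a beta chain of H2-DM, lay between 6.28 and 6.96 in all 7 arrays and did not pass in any comparison. H2-Eb2 (at most 4.37) and H2-Ea (at most 3.71) read under 5 in every array, and H2-DMb1 was not analysed here. None of 10 tested class II transcription factors passed in any comparison, with median differences of 0.14 for Sf.Il2-/- v Sf, -0.18 for Sf.Il2-/- v B6 and -0.33 for Sf v B6. Of these Irf1, an interferon-induced activator of Ciita, lay between 10.54 and 11.26, and Nfyc, a subunit of the factor that binds the Y box, between 9.15 and 10.09. Of 9 tested genes of class II antigen processing none passed either, and Ctss, the cathepsin that trims the invariant chain, lay between 11.06 and 11.82 and Ctsb between 10.32 and 11.23. Their median differences were -0.0036 for Sf.Il2-/- v Sf, 0.11 for Sf.Il2-/- v B6 and -0.24 for Sf v B6.

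Cathepsin H, encoded by Ctsh and named after its values were seen, split the arrays as the chains did. It read 2.64, 5.09 and 3.46 in Sf.Il2-/-, 5.82, 4.55 and 5.06 in Sf, and 3.02 in B6. It was dim throughout and did not pass in any comparison, with adjusted p-values in limma's fit of 0.621 for Sf.Il2-/- v Sf, 0.711 for Sf.Il2-/- v B6 and 0.191 for Sf v B6. Among 7 costimulatory genes of antigen-presenting cells, Pdcd1lg2, which encodes the PD-1 ligand PD-L2, rose against B6 and the other 6 did not pass. It read 7.53, 7.31 and 7.46 in Sf.Il2-/-, 7.71, 7.63 and 7.87 in Sf, and 6.00 in B6. Its difference was 1.43 ± 0.26 in Sf.Il2-/- (adjusted p = 0.0258) and 1.74 ± 0.26 in Sf (adjusted p = 0.0127), higher in every mutant array. The call in Sf.Il2-/- was lost without Sf 1 (adjusted p = 0.0608) or without any 1 of the Sf.Il2-/- arrays (0.0544 to 0.0853), without both Sf 1 and Sf.Il2-/- 2 (0.0782) and with no filter (0.0521). Of 14 MHC class I presentation genes 0 passed in any comparison, and H2-K1, a class I heavy chain, lay between 12.65 and 13.08 and its partner B2m between 12.87 and 13.22.

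Antigen-presenting cells carry abundant class II transcripts, so their markers are given beside the chains. Of 20 B cell markers 17 were measured and 9 of these read under 5 in every array, among them Cd79a (4.25 to 4.99) and Ms4a1, which encodes CD20 (3.54 to 4.95). Cd79b lay lower in every Sf.Il2-/- array (3.99 to 4.32) than in any Sf array (5.1 to 5.3), with B6 at 4.89. Of all genes tested, 3.72% lay lower without overlap in that comparison. The summed intensity of the 17 was 2810 to 2962 in Sf.Il2-/-, 1837 to 2291 in Sf and 3781 in B6. The brightest was Ighm, between 9.69 and 11.53 and highest in B6, with Cd22, Pou2af1, Cd72 and Bank1 next in brightness. Opposite to Cd79b, Ighm lay higher in every Sf.Il2-/- array (10.81 to 11.01) than in any Sf array (9.69 to 10.70). Of all genes tested, 8.39% lay higher without overlap in that comparison. The median difference of the 7 tested B cell markers was -0.06 for Sf.Il2-/- v Sf. Ighm made up most of the B6 sum, and without it B6 would not rank highest, so the order of the sums rests on that gene. The 8 plasma cell markers summed to 1287 to 1692 in Sf.Il2-/-, 1589 to 2252 in Sf and 1496 in B6, and their brightest, Xbp1, lay between 9.53 and 10.55, followed by Tnfrsf13b, Mzb1, Jchain and Igha. Jchain and Iglv1 were highest in Sf 1, at 7.46 and 6.58.

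Of 18 macrophage markers 17 were measured, with summed intensities of 1274, 1530 and 816 in Sf.Il2-/-, 1219, 1038 and 795 in Sf, and 1097 in B6. Csf1r, the brightest before Fcgr1, C1qb, Cd68 and Adgre1, lay between 8.36 and 9.49. Lyz2 read 4.40, 7.02 and 4.15 in Sf.Il2-/-, 5.76, 5.05 and 4.27 in Sf, and 4.02 in B6. The brighter Cd68 read 6.20, 6.33 and 6.74 in Sf.Il2-/-, 4.73, 4.77 and 5.32 in Sf, and 5.03 in B6. Cd68 was thus higher in every Sf.Il2-/- array than in any Sf array, as were 8.39% of all genes tested. The median difference of the 11 tested macrophage markers was 0.13 for Sf.Il2-/- v Sf. Of 15 dendritic cell markers 14 were measured, 7 of them under 5 in every array, with sums of 416, 551 and 398 in Sf.Il2-/-, 415, 430 and 417 in Sf, and 486 in B6. The brightest were Ccr9, Fscn1, Batf3, Itgax and Bcl11a, and Itgax, which encodes CD11c, was highest in Sf.Il2-/- 2 at 5.96. The neutrophil markers summed to 574, 932 and 471 in Sf.Il2-/-, 600, 459 and 406 in Sf, and 454 in B6, with Lcn2, Ngp, Mpo, Ltf and Mmp9 brightest. Sf.Il2-/- 2, the Sf.Il2-/- array with high chains, had the highest macrophage, dendritic cell and neutrophil sums of the 7 arrays, whereas Sf 3 had high chains with the lowest macrophage and neutrophil sums. None of the tested markers of these 5 cell types passed in any comparison, and their part in the class II values was not tested.

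Markers of T cells themselves gave summed intensities of 18730 to 20710 in Sf.Il2-/-, 11530 to 16830 in Sf and 22640 in B6 over 9 of 10 CD4 T cell genes. Cd3d lay between 11.20 and 11.75. CD8 T cell markers (2 genes) summed to 151 to 201 in Sf.Il2-/-, 146 to 201 in Sf and 312 in B6. Of 5 natural killer cell markers measured, Eomes, also a T cell factor, rose in Sf.Il2-/- against B6 by 2.52 ± 0.50 (adjusted p = 0.0346 in limma's fit), while Ncr1 reached at most 3.12 in any array. That call was lost without Sf.Il2-/- 2 (adjusted p = 0.0782) or without Sf.Il2-/- 3 (adjusted p = 0.0737), and with no filter (adjusted p = 0.0687). Stromal markers summed to 442 to 481 in Sf.Il2-/-, 365 to 463 in Sf and 627 in B6, and erythroid markers to 18.2 to 32.3 in Sf.Il2-/-, 31.4 to 36.6 in Sf and 70.5 in B6.

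**Figure D4:**
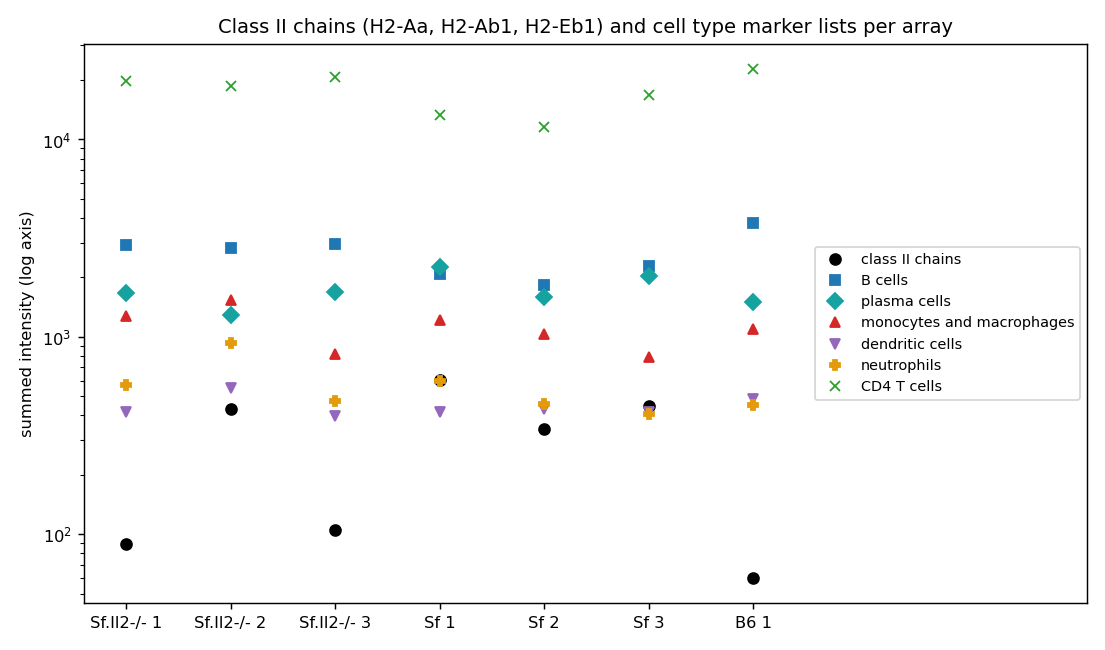
Summed intensity, on a log axis, of the 3 class II chains and of marker lists for 6 cell types in each array, in the order Sf.Il2-/- 1 to 3, Sf 1 to 3 and B6. The chains reach 606 in Sf 1 and are at 60.4 in B6. B cell and dendritic cell sums vary less, but bright genes such as Ighm and Ccr9 carry much of them, so dim markers hardly move them.

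By a fixed measure, the genes most like the class II pattern were the 15 with the highest Pearson correlation, over the 7 arrays, with the mean log2 value of Cd74, H2-Aa, H2-Ab1 and H2-Eb1. They were Mdfic (r = 0.978), Gm4951 (r = 0.967), Mcoln2, Emp1, Efcab7, Mt1, Cxcl3, Tmem219, Ifitm2, Card10, Car5b, Extl2, Sfmbt1, Sh3gl3 and Adgrv1 (r = 0.927). Their size of change differed widely, with a range over the arrays of 0.46 for Card10 and 5.78 for Ifitm2, an interferon-inducible membrane protein gene. Emp1, a membrane protein gene, read 5.78, 7.55 and 6.11 in Sf.Il2-/-, 7.37, 7.61 and 7.35 in Sf, and 5.07 in B6. None of the 15 stands on a cell type marker list, but the lists hold few of the genes tested, so nothing is read from that. The arrays share their groups and the B6 value, and a correlation over 7 arrays picked as the highest of 11460 is a description only.

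**Figure D5:**
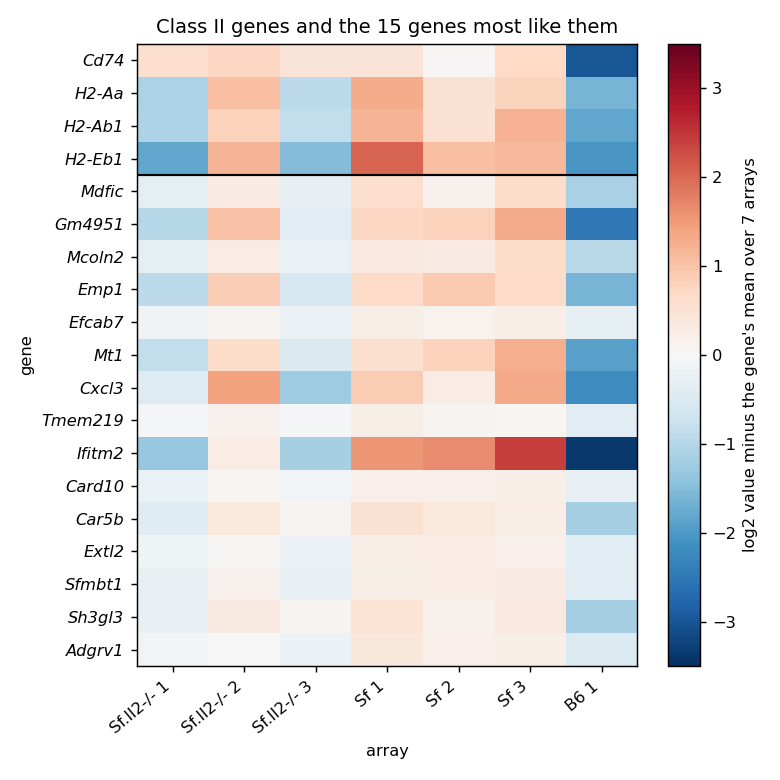
Heat map of Cd74, H2-Aa, H2-Ab1 and H2-Eb1 (above the line) and the 15 genes most like their mean (below it), coloured by the log2 value minus the gene's mean over the 7 arrays. Columns run from Sf.Il2-/- 1 to 3 through Sf 1 to 3 to B6. All 15 genes are lowest in B6, and their range over the arrays runs from 0.46 to 5.78.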

How the data were processed

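RNA of sorted CD4+ T cells was measured on 7 Affymetrix arrays, 3 Sf.Il2-/-, 3 Sf and 1 B6, grouped by their titles. The authors deposited linear intensity values of 45037 probe sets, and GCRMA and GCOS are named per the submitters' processing notes, with their versions and parameters not given in the sources used here. In the platform annotation 34945 probe sets carry a single gene, 932 more than 1 and 9160 no gene, and 34741 symbols were updated through Entrez numbers (GRCm38.p6). Values were taken as log2(intensity + 1), with the brightest probe set per gene, and 11460 of 18193 genes whose highest group mean was at least 5 were tested. Limma 3.58.1 in R 4.3.3 (lmFit, eBayes with trend, Benjamini-Hochberg adjustment at 0.05) fitted 3 group means over all 7 arrays with 4 residual degrees of freedom. B6 was assumed to vary like the other groups. The titles call the arrays biological replicates but name no animals, so p-values measure the spread between these arrays.

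Same-numbered Sf.Il2-/- and Sf arrays deviated from their group means together (correlations 0.301, 0.211 and 0.505), although Sf.Il2-/- 1 correlated better with Sf 2 (0.333). All 3 exceed 0.1, as does the correlation of Sf.Il2-/- 2 with Sf 1 (0.111). Correlations were positive within each array set and negative between the sets, so a pairing by number cannot be told apart from the array set. The titles name no pairing, and a fit with the number as a block was run as an alternative only. The members and lists were chosen with earlier results of these data known. Members were always named, other list genes where they passed or were the 2 brightest, and marker genes where they passed or were among the 5 brightest. S100a8, Lyz2, Cd79a, Cd79b, Ms4a1, Iglv1, Ncr1, H2-Ea and Ctsh, and the genes of the closing observations, were chosen after their values were seen. Drawing used Python 3.11.15 and matplotlib 3.10.9.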

Additional observations from a re-analysis of the deposited data

How the results depend on the processing

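The median difference of the members kept its sign under every alternative run, and moved by less than the SD between arrays of a mutant group (0.67). It still fell to 0.85 in Sf.Il2-/- v B6 (1.39 over all arrays) without Sf.Il2-/- 2. In Sf.Il2-/- v Sf (-1.19) it was -0.70 with the second brightest probe sets and -0.57 in array set 2 alone. Cd74 in Sf.Il2-/- v Sf, at 0.20, turned to -0.088 with quantile normalization. Counts over all genes moved by more than 1.5 times in several settings. For Sf.Il2-/- v Sf (32 genes) they were 11 without a filter, 52 without Sf 1 and Sf.Il2-/- 2, 74 with the array set as a block, 571 in array set 1 alone, and 8 to 854 leaving out 1 array. With the replicate block that count was 60, and the number of members passing stayed at 0. For Sf v B6 (283) they were 161 without a filter, 536 with quantile normalization, 535 with centred arrays, 188 with the mean of probe sets, 605 with the array set as a block, and 118 to 3509 leaving out 1 array. For Sf.Il2-/- v B6 (308) they were 138 without a filter, 707 with quantile normalization, 721 with the array set as a block, and 129 to 1560 leaving out 1 array. The highest count in each came without Sf 3. Members passing in Sf.Il2-/- v Sf numbered 0 to 3 leaving out 1 array, 3 without Sf 1 and Sf.Il2-/- 2 and 1 in array set 1 alone. In Sf v B6 they numbered 2 to 7 and in Sf.Il2-/- v B6 2 to 4 leaving out 1 array. The causes of these changes were not tested. No replicate block could be fitted for the comparisons with B6, which share 1 number. Dim probe sets, H2-Eb1 in B6 and Ciita among them, have sizes that the floor limits.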

Other observations

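Taken apart after the values were seen, the invariant chain and the class II chains had different nearest genes. With Cd74 alone the highest correlations over the 7 arrays were those of Ryk (r = 0.996), a receptor for Wnt ligands, Rab19 (r = 0.989) and Adat2 (r = 0.988). Tnfsf13b, which encodes the B cell survival cytokine BAFF, and Il1r2, the decoy receptor for interleukin-1, also stood among the first 15 (r = 0.986 and r = 0.985). Ryk read 6.38, 6.62 and 6.49 in Sf.Il2-/-, 6.35, 6.17 and 6.72 in Sf, and 2.52 in B6, so it too was even over the mutants. Tnfsf13b read 7.04, 7.18 and 6.49 in Sf.Il2-/-, 6.43, 6.56 and 6.85 in Sf, and 3.42 in B6.

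With the mean of H2-Aa, H2-Ab1 and H2-Eb1 the closest gene was Ctsh (r = 0.969), followed by Efcab7 (r = 0.963) and Sfmbt1 (r = 0.959). Fgl2, which encodes a fibrinogen-like protein that activated T cells can secrete, was among them (r = 0.941) and read 5.18, 7.54 and 6.37 in Sf.Il2-/-, 9.16, 8.70 and 9.27 in Sf, and 5.24 in B6. No gene was among the first 15 of both patterns, and none of either 15 stands on a cell type marker list. As the lists hold few of the genes tested, that absence was likely beforehand and says nothing about cell types. These correlations were picked as the highest over 11460 genes and describe only these 7 arrays.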
